A study of Mus musculus with 10 samples.

Results

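A set of 10 genes of smooth muscle differentiation was followed through RNA sequencing of O9-1 cells, a mouse line of cranial neural crest origin, in which Kat5 or Ep400 had been inactivated. The genes were Acta2, Tagln, Cnn1, Cnn2, Myh11, Myl9, Tpm1, Tpm2, Srf and Myocd. They were chosen by symbol, and all 10 were found among the 43346 genes of the count table. Their values in every library are given first, followed by the comparisons of each knockout with wildtype and of the knockouts with each other.

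The libraries came from 4 wildtype samples of the line, 3 Kat5 ko clones and 3 Ep400 ko clones, all kept on Matrigel in medium conditioned by STO fibroblasts. Kat5 is the histone acetyltransferase and Ep400 the remodelling ATPase of the Tip60/Ep400 complex. Knockouts were made with CRISPR/Cas9, and each clone was grown after sorting of transfected cells and entered with 1 library, so that differences between clones and between libraries cannot be told apart. The study describes the Kat5 ko clones as carrying insertions or deletions, predicted to shift the reading frame, in all alleles of this tetraploid line. Among the Ep400 ko clones this held for Ep400/1, while Ep400/3 kept 1 allele and Ep400/2 all but 1 allele with short in-frame deletions. The study places these deletions in the ATP binding site and expects them to inactivate Ep400. By immunostaining it detected no Ep400 protein in any Ep400 ko clone. Kat5 protein was not detected in any Kat5 ko clone by immunostaining or Western blot. The wildtype samples are not described as cloned, so effects of cloning and of the knockout cannot be told apart.

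Smooth muscle cells contract through filaments of a smooth muscle actin and a smooth muscle myosin, and calponins, tropomyosins and transgelin bind to the actin filaments. Many genes of this apparatus are controlled by CArG boxes, to which the transcription factor SRF binds. Myocardin and the related factors MKL1 and MKL2 act as coactivators of SRF, the latter when actin monomers become scarce. Cranial neural crest cells are a known source of vascular smooth muscle and pericytes in the head, and O9-1 cells can be turned into smooth muscle cells in culture.

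Between 30968945 and 48301792 reads per library were counted on genes, and 0.893% to 3.24% of them fell on mitochondrial genes. Kat5 stood at 29.8% to 42.2% of the wildtype mean in the Kat5 ko clones (log2-fold change −1.40, standard error 0.17, adjusted p = 0.0207), a call that was lost in 3 of the 7 fits that left out 1 library. Ep400 stood at 33.7% to 37.3% in the Ep400 ko clones (log2-fold change −1.44, standard error 0.12, adjusted p = 0.0012). All p were obtained by the quasi-likelihood method of edgeR and adjusted after Benjamini and Hochberg over all genes tested, and a gene was called at an adjusted p of at most 0.05. Errors of log2-fold changes are standard errors throughout, from 4 wildtype samples and 3 clones per knockout. Of 10 neural crest markers, Sox10 and Foxd3 had 0 counts in all libraries, and the markers together summed to 351 to 510 CPM (reads scaled to 1000000 reads on genes, with TMM-normalised library sizes). Fibroblast markers summed to 4298 to 8890 CPM, pericyte markers to 147 to 535 CPM, epithelial markers to 0.416 to 4.87 CPM, endothelial markers to 0.196 to 1.71 CPM, blood cell markers to 2.54 to 7.74 CPM and 17 genes of skeletal and cardiac muscle to at most 3.20 CPM.

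The promoters are shown first because they were searched for the box that SRF binds. RefSeq promoter windows of build GRCm38.p6, each with 250 bases before and 50 after the start site, were at hand for 7 of the 10 genes, and not for Tagln, Myh11 and Myocd. A CArG box, a pair of C, then 6 bases that are A or T, then a pair of G, reads the same on both strands as a pattern. It was present in 1.63% of 32851 mouse promoter windows of this length, and in those of Cnn2, Myl9 and Srf. When 1 of the 6 middle bases was allowed to be any base, 9.98% of windows had a match, and Acta2 and a second place in Myl9 were added. None of these matches was found in the windows of Cnn1, Tpm1 and Tpm2, which says only that these letters were not in these windows. The matches are in capitals below, 5′ to 3′ on the strand of the gene, with the surrounding bases in lower case.
Acta2, chr19:34255438-34255467, minus strand: gtgctgaggtCCCTATATGGttgtgttaga
Acta2, chr19:34255388-34255417, minus strand: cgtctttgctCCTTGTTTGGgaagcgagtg
Cnn2, chr10:79988519-79988578, plus strand: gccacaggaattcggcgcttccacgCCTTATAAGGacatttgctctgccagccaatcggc
Myl9, chr2:156775278-156775399, plus strand: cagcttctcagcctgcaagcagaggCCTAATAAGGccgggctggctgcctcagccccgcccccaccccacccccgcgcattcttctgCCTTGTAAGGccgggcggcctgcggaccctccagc
Srf, chr17:46556190-46556269, minus strand: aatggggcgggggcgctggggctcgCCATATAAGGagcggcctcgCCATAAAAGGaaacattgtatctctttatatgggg

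The Acta2 matches began 84 and 34 bases before the RefSeq start site, and GENCODE M21 places both within the first exon of a longer Acta2 transcript. Each of them has 1 base among the middle 6 that is not A or T. In Srf, the gene of the factor that binds the box, 2 full boxes lay next to each other, 82 and 62 bases before the start. The single full boxes of Cnn2 and Myl9 began 56 and 161 bases before the start. Such matches describe the sequence and are no evidence that SRF was bound.

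**Figure D1:**
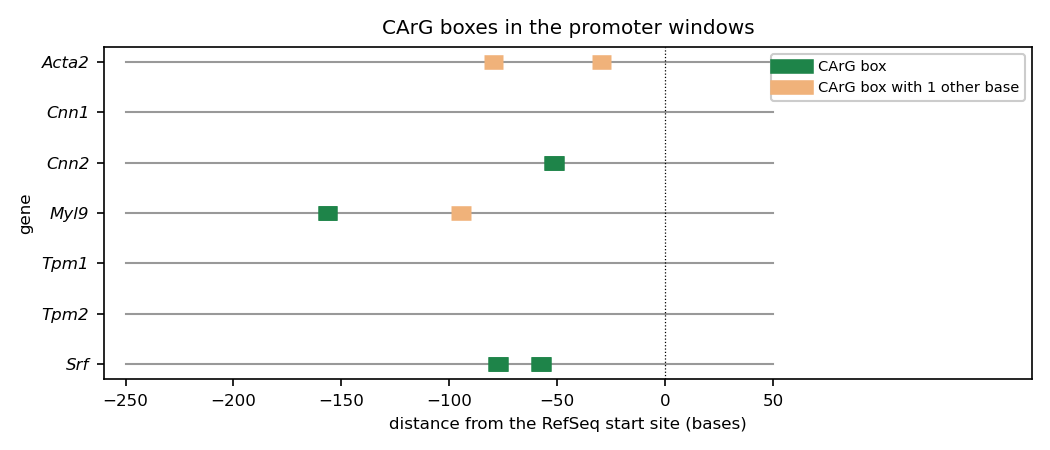
Position of CArG boxes in the promoter windows of the 7 genes with a RefSeq window (rows), against the distance from the start site in bases. Green marks a full box, orange a match with 1 other base among the middle 6, and the vertical dotted line the start site; Cnn1, Tpm1 and Tpm2 have no mark.

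Srf and Myocd, the transcriptional regulators of the group, differed widely in level. Myocd, the gene of the muscle-specific coactivator myocardin (ENSMUSG00000020542, GRCm38 chromosome 11, 65176561 to 65269989, minus strand), had 1 count in wildtype sample 4, 1 count in Ep400/2 and 0 counts in the other 8 libraries. Zero counts allow levels of up to 0.0657 to 0.0980 CPM at these depths, counting error only, and no difference in Myocd was detectable. Srf (ENSMUSG00000015605, chromosome 17, 46548329 to 46556175, minus strand) stood at 87.8, 94.4, 71.8 and 69.7 CPM in wildtype samples 1 to 4. It stood at 125, 104 and 89.2 CPM in clones Kat5/1, Kat5/2 and Kat5/3, and at 92.6, 75.6 and 75.0 CPM in clones Ep400/1, Ep400/2 and Ep400/3. Clones Kat5/1 and Kat5/2 lay above all wildtype samples and the other 4 clones within their range. A chromosome shift, the median log2 difference of a chromosome's tested genes from the wildtype mean, was also taken for chromosome 17. It was 0.040, −0.051 and −0.375 in Kat5/1, Kat5/2 and Kat5/3, and 0.094, −0.338 and −0.164 in Ep400/1, Ep400/2 and Ep400/3. Such shifts served as offset in an alternative fit. The log2-fold change of Srf was 0.39 ± 0.17 in Kat5 ko clones (adjusted p = 0.233) and 0.04 ± 0.16 in Ep400 ko clones (adjusted p = 0.870), both against wildtype.

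Acta2, Tagln and Myl9 ranged widely between clones of the same knockout. Acta2 encodes smooth muscle α-actin (ENSMUSG00000035783, chromosome 19, 34241090 to 34255590, minus strand). It stood at 14.0, 5.62, 5.74 and 15.6 CPM in wildtype samples 1 to 4, at 506, 0.457 and 20.5 CPM in clones Kat5/1, Kat5/2 and Kat5/3, and at 46.8, 2.03 and 56.8 CPM in clones Ep400/1, Ep400/2 and Ep400/3. No clone was within the wildtype range, as Kat5/1, Kat5/3, Ep400/1 and Ep400/3 were above all wildtype samples and Kat5/2 and Ep400/2 below all of them. Clone Kat5/1 had 49.5 times the wildtype mean and Kat5/2 4.47% of it, a 1107-fold span between clones with the same targeted gene. The means were 10.2 ± 5.30 CPM in wildtype (SD, n = 4), 176 ± 287 CPM in Kat5 ko clones (SD, n = 3) and 35.2 ± 29.2 CPM in Ep400 ko clones (SD, n = 3). In RNA from whole cultures, a change in the number of expressing cells and in the RNA per cell cannot be told apart.

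Tagln encodes transgelin, an actin-binding protein also called SM22α (ENSMUSG00000032085, chromosome 9, 45929619 to 45936058, minus strand). It stood at 1.39, 0.175, 0.900 and 1.22 CPM in wildtype samples 1 to 4. Clones Kat5/1, Kat5/2 and Kat5/3 had 181, 0 and 3.13 CPM, and clones Ep400/1, Ep400/2 and Ep400/3 had 4.13, 0.0922 and 0.218 CPM. In clone Kat5/1 this was 196 times the wildtype mean, from 6533 reads, while Kat5/2 had 0 reads, which allows up to 0.0980 CPM. Kat5/3 and Ep400/1 were also above all wildtype samples, Ep400/2 with 3 reads was below them and Ep400/3 was within their range. Of the 100-base stretches of Tagln transcripts, 48.3% are shared, on one or the other strand, with the antisense gene Gm48529 or with Pcsk7, which overlap Tagln on the opposite strand by 1241 and 108 exonic bases. The libraries kept strand, but whether the counting did is not given in the sources used here, and reads of Tagln and its antisense partner could then not be told apart.

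Myl9 encodes a regulatory light chain of smooth muscle myosin (ENSMUSG00000067818, chromosome 2, 156775420 to 156781658, plus strand). It stood at 1.33, 0.524, 0.423 and 0.856 CPM in wildtype samples 1 to 4, which corresponds to 16 to 41 reads. Clones Kat5/1, Kat5/2 and Kat5/3 had 20.7, 0.0327 and 0.263 CPM, and clones Ep400/1, Ep400/2 and Ep400/3 had 0.957, 0 and 5.50 CPM. Clone Kat5/1 stood at 26.5 times the wildtype mean and Ep400/3 at 7.02 times, whereas Kat5/2, Kat5/3 and Ep400/2 were below all wildtype samples with 1, 12 and 0 reads. Thus Acta2 and Tagln but not Myl9 were above the wildtype samples in Kat5/3, and Acta2 and Myl9 but not Tagln in Ep400/3.

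**Figure D2:**
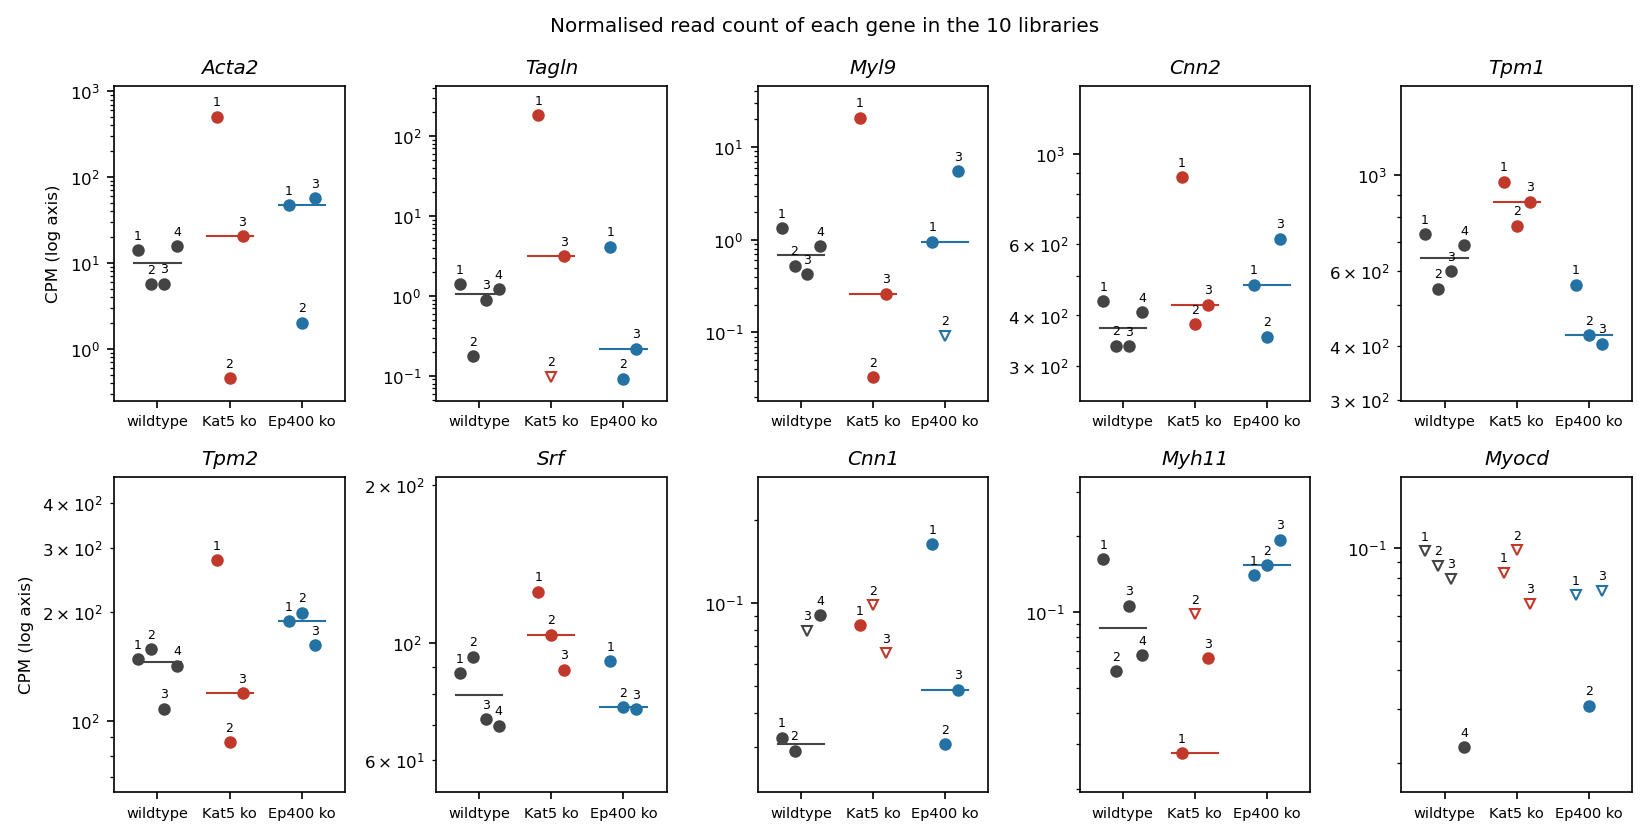
Normalised read count in CPM (log axis, own scale in each panel) of the 10 genes in wildtype samples (grey), Kat5 ko clones (red) and Ep400 ko clones (blue), with numbers that name the sample or clone. Filled circles are measured values, open triangles mark the limit that 0 counts allow, and lines are group medians above 0. Acta2, Tagln and Myl9 are highest in Kat5/1, with 506, 181 and 20.7 CPM, and lie far lower in Kat5/2.

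The calponins, which bind actin and inhibit the myosin ATPase, were expressed in unequal amounts. Cnn1, the form typical of differentiated smooth muscle (ENSMUSG00000001349, chromosome 9, 22099216 to 22109630, plus strand), had 0 to 4 reads in wildtype samples, 0 to 3 in Kat5 ko clones and 1 to 7 in Ep400 ko clones, the most in Ep400/1. It did not pass the filter on low counts. Cnn2, which is also found in many cells other than muscle (ENSMUSG00000004665, chromosome 10, 79988584 to 79996062, plus strand), stood at 435, 337, 336 and 408 CPM in wildtype samples 1 to 4. It stood at 879, 380 and 425 CPM in Kat5/1, Kat5/2 and Kat5/3, and at 476, 354 and 620 CPM in Ep400/1, Ep400/2 and Ep400/3. Clones Kat5/1, Ep400/1 and Ep400/3 were above all wildtype samples and the other clones within their range. The log2-fold change of Cnn2 was 0.56 ± 0.29 in Kat5 ko clones (adjusted p = 0.281) and 0.40 ± 0.21 in Ep400 ko clones (adjusted p = 0.225), and that in Kat5 ko clones fell to 0.09 without Kat5/1.

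Tropomyosins lie along the actin filament and control the access of myosin. Tpm1 (ENSMUSG00000032366, chromosome 9, 67022590 to 67049406, minus strand) stood at 729, 544, 597 and 688 CPM in wildtype samples 1 to 4. It stood at 966, 763 and 867 CPM in Kat5/1, Kat5/2 and Kat5/3, and at 556, 424 and 405 CPM in Ep400/1, Ep400/2 and Ep400/3. All Kat5 ko clones were thus above all wildtype samples, and Ep400/2 and Ep400/3 below them. The log2-fold change of Tpm1 was 0.43 ± 0.15 in Kat5 ko clones (adjusted p = 0.158) and −0.43 ± 0.17 in Ep400 ko clones (adjusted p = 0.130). Tpm2 (ENSMUSG00000028464, chromosome 4, 43514711 to 43523765, minus strand) stood at 148, 158, 108 and 142 CPM in wildtype samples 1 to 4. It stood at 278, 87.2 and 119 CPM in Kat5/1, Kat5/2 and Kat5/3, and at 189, 199 and 162 CPM in Ep400/1, Ep400/2 and Ep400/3. Here all Ep400 ko clones were above all wildtype samples, while Kat5 ko clones lay on both sides of them. Gene counts do not resolve the muscle and nonmuscle isoforms of either gene, of which GENCODE M21 lists 21 and 6 transcripts.

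Myh11, the heavy chain of smooth muscle myosin and the gene most restricted to this cell type (ENSMUSG00000018830, chromosome 16, 14194535 to 14291372, minus strand), had 2 to 5 reads in wildtype samples, 0 to 3 in Kat5 ko clones and 5 to 8 in Ep400 ko clones. It was not tested because of these low counts. Myh11, Cnn1 and Myocd, all known from mature smooth muscle, were thus at or near 0 in all libraries, including Kat5/1 with its 18313 reads of Acta2. In Kat5/1 they had 1, 3 and 0 reads, respectively.

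Per kilobase of exon (RPKM, from CPM and the summed exon length of each gene), the order of levels in wildtype was Cnn2, Tpm1, Tpm2, Srf, Acta2, Myl9, Tagln, Myh11, Cnn1 and Myocd. Median levels were 151 RPKM for Cnn2, 99.1 for Tpm1, 49.9 for Tpm2, 27.6 for Srf, 4.50 for Acta2, 0.594 for Myl9 and 0.532 for Tagln, and at most 0.0114 for the other 3 genes. The ranges of Cnn2, Tpm1, Tpm2, Srf and Acta2 over the 4 wildtype samples did not overlap with their neighbours, whereas those of Myl9 (0.364 to 1.14 RPKM) and Tagln (0.0879 to 0.701 RPKM) did. In clone Kat5/1, Acta2 reached 231 RPKM and was second to Cnn2 with 357 RPKM, and Tagln reached 90.9 RPKM. In Kat5/2 the same genes stood at 0.208, 154 and 0 RPKM.

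The first comparison asked how loss of Kat5 altered these genes. Fitted log2-fold changes of Acta2, Tagln and Myl9 against wildtype were 4.10 ± 1.56, 6.05 ± 1.91 and 3.16 ± 1.53, with adjusted p of 0.177, 0.129 and 0.263. That of Tpm2 was 0.21 ± 0.36 (adjusted p = 0.769). None of the 7 genes that passed the filter was called, in either direction, against 0.625% of 13434 genes tested. An unadjusted p of at most 0.05 was found for 3 of the 7, Acta2, Tagln and Tpm1, beside 2996 of all 13434. Limma-voom also called 0 of the 7. DESeq2 called 0 as well, but gave no adjusted p for Tagln and Myl9, which it could therefore not call. The median log2-fold change was 0.56 for the 7 genes and 0.00 for all genes tested. Groups did not overlap, with all clones above all wildtype samples, for 1 of the 7 genes, Tpm1, and for 8.79% of all genes. All clones were below all wildtype samples for 0 of the 7 and for 10.8% of all genes. Without Kat5/1, the log2-fold changes of Acta2 and Tagln fell to 0.03 and 0.78, and those of Myl9 and Tpm2 turned to −2.30 and −0.43, none of them called (adjusted p of 0.987, 0.710, 0.0935 and 0.150).

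The second comparison asked the same for Ep400. Log2-fold changes against wildtype were 1.83 ± 0.85 for Acta2, 0.72 ± 1.13 for Tagln and 1.52 ± 1.17 for Myl9, with adjusted p of 0.176, 0.695 and 0.395, and 0.44 ± 0.16 for Tpm2 with an adjusted p of 0.102. None of the 7 genes was called, against 13.7% of 13836 genes tested. An unadjusted p of at most 0.05 was found for 2 of the 7, Tpm1 and Tpm2, beside 4453 of all 13836. Limma-voom again called 0 of the 7. DESeq2 called 0 as well, but gave no adjusted p for Tagln, which it could therefore not call. The median log2-fold change was 0.44 for the 7 genes and 0.04 for all genes tested. All clones were above all wildtype samples for 1 of the 7 genes, Tpm2, and for 14.3% of all genes, and below them for 0 of the 7 and 16% of all genes. Acta2 was called when Ep400/2 was left out, with a log2-fold change of 2.36 (adjusted p = 0.0193). Over the 7 fits that left out 1 library each, the adjusted p of Acta2 ranged from 0.0193 to 0.421. Tagln turned to −2.47 without Ep400/1 and Myl9 to −0.65 without Ep400/3 (adjusted p of 0.106 and 0.746). Both knockout comparisons use the same wildtype libraries. Among markers of other cells, 3 of 8 neural crest genes (Pax3, Tfap2a and Snai2), 1 of 3 pericyte genes (Pdgfrb) and 1 of 6 fibroblast genes (Pdgfra) tested rose in Ep400 ko clones, and 2 of 3 epithelial genes (Krt8 and Krt18) and 1 of 1 endothelial gene (Pecam1) fell. These genes were named after their values were seen. With 1 library left out, the calls of Pdgfrb and Snai2 were lost in 6 of 7 fits, those of Tfap2a, Krt8 and Pecam1 in 4, that of Krt18 in 1 and those of Pax3 and Pdgfra in 0. DESeq2 also called 2 neural crest genes lower, Snai1 and Ets1 (−0.47 and −0.57 in edgeR, not called), and limma-voom did not call Pdgfrb. In Kat5 ko clones 0 markers of these lists were called in edgeR and limma-voom, while DESeq2 called Krt8, Pecam1, Anpep, Col3a1 and Dcn, all lower. Log2-fold changes in edgeR were −2.62 for Krt8, −3.15 for Krt18 and −2.11 for Pecam1 in Kat5 ko clones, and −2.21, −5.78 and −3.33 in Ep400 ko clones. These genes had few reads. Krt8 had 28 to 96 reads per wildtype library, and 5 to 15 and 11 to 18 in Kat5 ko and Ep400 ko clones. In the same order Krt18 had 12 to 108, 0 to 12 and 0 to 2 reads. Pecam1 had 23 to 72, 3 to 18 and 1 to 11 reads.

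Direct comparison of the knockouts gave the smallest adjusted p of the 7 genes for Tpm1. It was lower in Ep400 ko than in Kat5 ko clones, with a log2-fold change of −0.91 ± 0.23. All Ep400 ko clones were below all Kat5 ko clones, but the share of all genes separated in this way was not counted. The adjusted p of Tpm1 was 0.0527 in edgeR's quasi-likelihood test. It lay within the threshold with DESeq2 (0.00143), with limma-voom (0.0477), with all 10 libraries in 1 fit (0.0107) and with chromosome shifts as offset (0.0413). It lay above the threshold in all 6 fits with 1 clone left out (0.0571 to 0.169), and Tpm1 was not called under the replicate block. Again 0 of the 7 genes were called, against 7.05% of 13587 genes tested. Tagln had a log2-fold change of −5.37 ± 2.46 (adjusted p = 0.176), which was −0.10 without Kat5/1, and Acta2 one of −2.33 ± 1.90 (adjusted p = 0.423), which turned to 1.74 without Kat5/1. Those of Myl9, Srf, Cnn2 and Tpm2 were −1.70 ± 2.09, −0.39 ± 0.20, −0.22 ± 0.38 and 0.18 ± 0.42, with adjusted p of 0.600, 0.215, 0.716 and 0.792. All 3 pericyte markers tested were higher in Ep400 ko than in Kat5 ko clones, and the 6 markers of this list summed to 422 to 535 and 163 to 204 CPM, respectively, beside 147 to 336 CPM in wildtype. Pdgfrb and Cspg4 made up nearly all of these sums, with Anpep at most at 7.46 CPM. Kcnj8 had 0 reads in all libraries and Abcc9 at most 1. Rgs5 had 4 to 16 reads in wildtype samples, 0 in Kat5 ko clones and 0 to 4 in Ep400 ko clones. The calls of Anpep, Cspg4 and Pdgfrb were lost in 4, 5 and 4 of the 6 fits with 1 clone left out. Their part in the values of the smooth muscle genes was not tested.

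**Figure D3:**
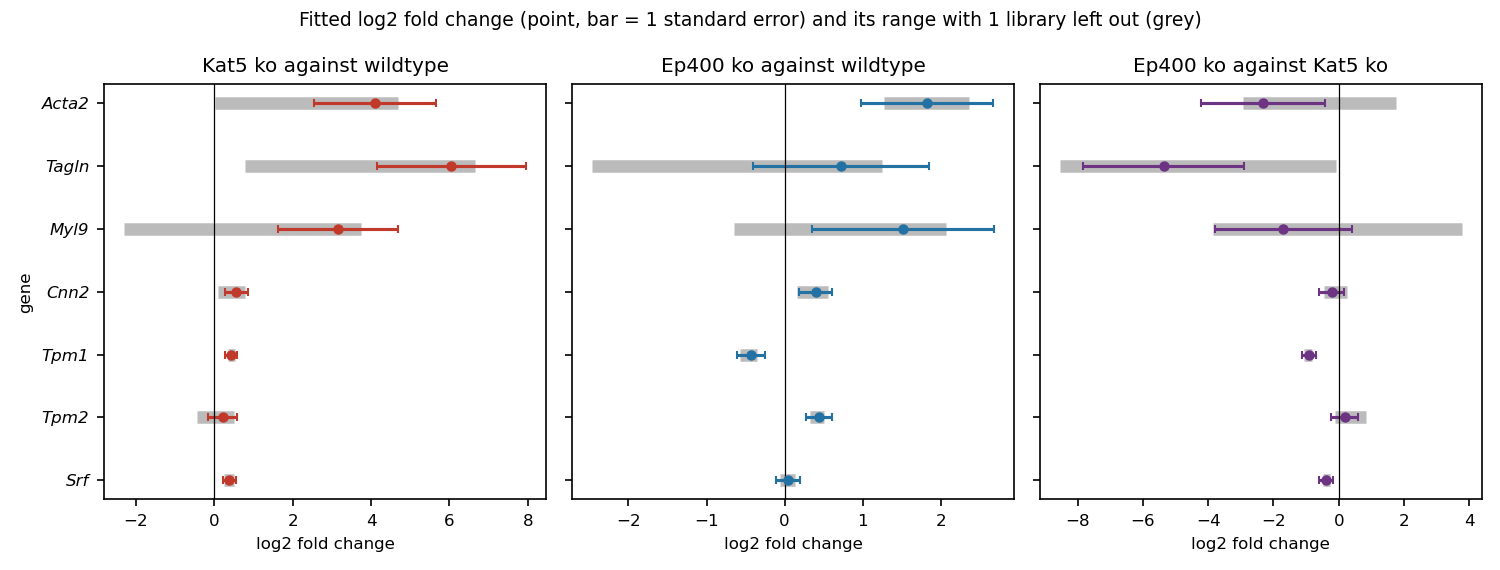
Log2-fold change of the 7 genes tested (points, with bars of 1 standard error) in the 3 comparisons, and in grey the range of this value when each library was left out in turn. Axes differ between panels. For Acta2 in Kat5 ko clones the grey range runs from 0.03 to 4.68, whereas for Tpm1 it runs from 0.35 to 0.52.

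Each clone was also set against the range of the wildtype samples. In Kat5/1 all 7 were above the wildtype range, where 26.6% of 13322 genes tested in both knockout comparisons were. In Kat5/2, 2 were above and 4 below (all genes 32.7% and 35.7%), and in Kat5/3, 3 were above and 1 below (31.9% and 33.7%). In Ep400/1, 4 were above and 0 below (all genes 28.9% and 32.2%), in Ep400/2, 1 was above and 4 below (29.6% and 35.4%), and in Ep400/3, 4 were above and 1 below (33% and 38.6%). Summed over all 10 genes, wildtype samples had 1120 to 1416 CPM, Kat5/1 2956 CPM and the other 5 clones 1055 to 1524 CPM. Kat5/1 was the library with the lowest share of mitochondrial reads, 0.893% (0.963% in Kat5/3), with 36243508 reads in total. Its fibroblast, pericyte and neural crest markers summed to 4619, 204 and 510 CPM, against 5123 to 7478, 147 to 336 and 355 to 446 CPM in wildtype. The pericyte sum thus lay within the wildtype range. Fibroblast markers summed below wildtype also in Kat5/2, Ep400/1 and Ep400/2 (4431, 4929 and 4298 CPM), but not in Kat5/3 and Ep400/3 (6355 and 8890 CPM). Neural crest markers summed above wildtype also in Kat5/2 (463 CPM), but not in the remaining clones. The part of these marker levels in the values of the smooth muscle genes was not tested.

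**Figure D4:**
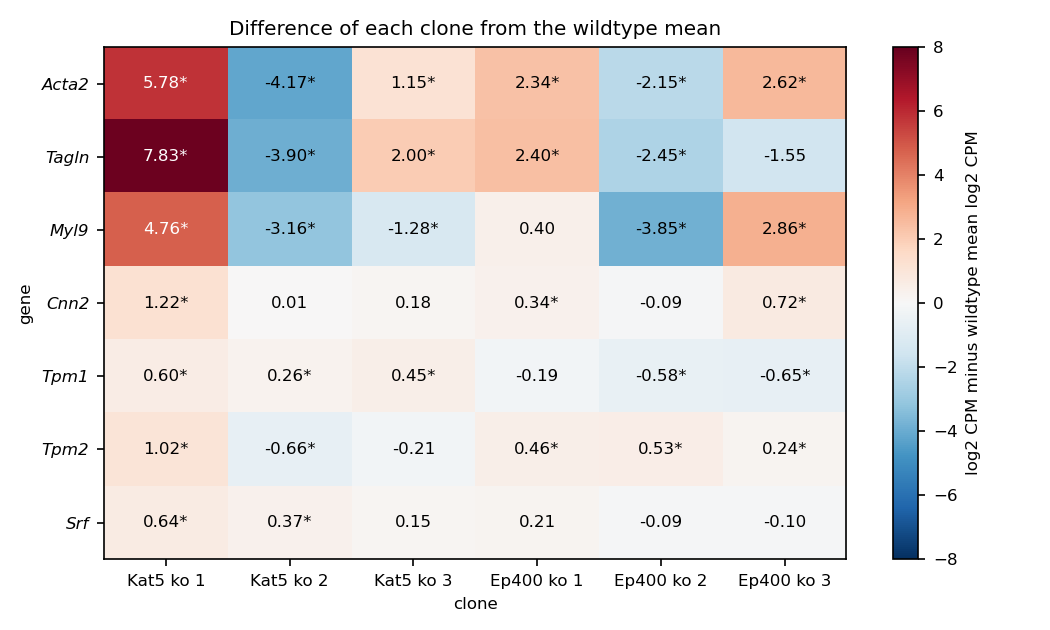
Difference of each clone (columns) from the wildtype mean, in log2 CPM, for the 7 genes tested (rows). Red is above and blue below the wildtype mean, and an asterisk marks values outside the range of the 4 wildtype samples. All values of Kat5/1 are positive, from 0.60 for Tpm1 to 7.83 for Tagln, while Acta2, Tagln and Myl9 are all below −3 in Kat5/2.

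Spread between clones of the same knockout was large for some genes of the group even when set against all genes. The SD of log2 CPM over the 3 Kat5 ko clones was 5.87 for Tagln, rank 1 of 13322 genes, 4.98 for Acta2, rank 7, and 4.14 for Myl9, rank 20. The median of all genes was 0.35. Over the 3 Ep400 ko clones, the SD was 3.39 for Myl9, rank 18, 2.68 for Acta2, rank 52, and 2.58 for Tagln, rank 60, with a median of 0.34 over all genes. Over the 4 wildtype samples the SD was 0.69 for Myl9, rank 1366, 0.79 for Acta2, rank 1018, and 1.23 for Tagln, rank 325. The median gene had an SD of 0.23 there. By contrast, Tpm1 and Srf had an SD of 0.17 and 0.25 between Kat5 ko clones and of 0.25 and 0.17 between Ep400 ko clones, below the median gene. Tpm2 had 0.87 between Kat5 ko and 0.15 between Ep400 ko clones, and Cnn2 0.66 and 0.40. Tagln and Myl9 had 0 reads in 1 clone each, and Acta2 had at least 14 reads in every library.

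**Figure D5:**
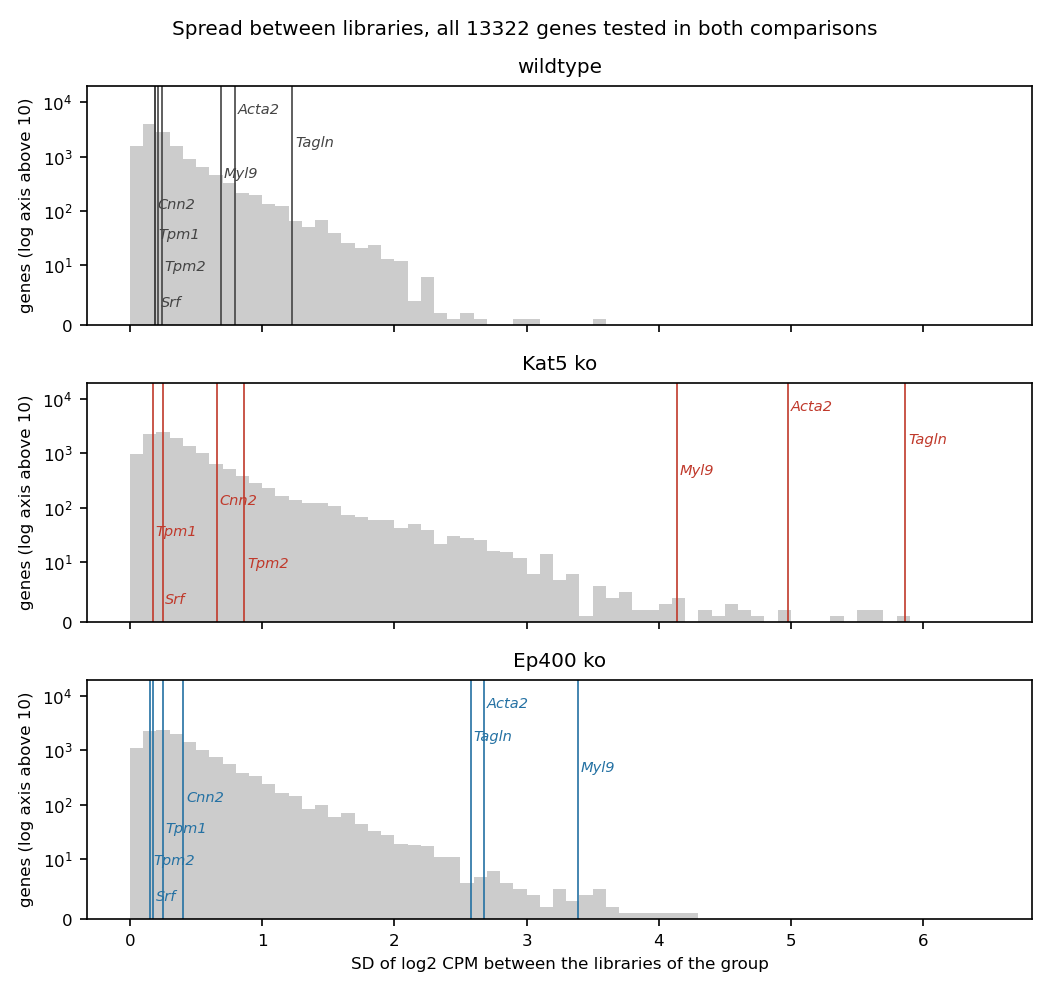
Number of genes (grey bars, axis logarithmic above 10) by the SD of log2 CPM between wildtype samples, Kat5 ko clones and Ep400 ko clones, for the 13322 genes tested in both knockout comparisons. Lines mark the 7 smooth muscle genes tested. Acta2, Tagln and Myl9 sit at the far right among the clones, at up to 5.87 for Tagln, while Srf and Tpm1 lie within the bulk.

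The genes also differed in how they went together over the 10 libraries. Pearson's r of log2 CPM was 0.91 between Acta2 and Myl9, 0.87 between Acta2 and Tagln and 0.85 between Acta2 and Cnn2, and 0.84, 0.74 and 0.71 without Kat5/1. Acta2 and Srf had an r of 0.30, which was −0.31 without Kat5/1. Tpm1 and Tpm2 had an r of −0.10, which was −0.67 without Kat5/1. Among genes outside the group, the mean profile of the 7 genes was closest to Mboat7, Dstn, Ccdc112, Tnks1bp1 and Gm14584, with r of 0.92, 0.92, 0.91, 0.91 and 0.89 (n = 10 libraries). Without Kat5/1 these r were 0.59, 0.76, 0.82, 0.63 and 0.70. Dstn, the gene of the actin-severing protein destrin, stood at 458 CPM in Kat5/1 and at 144 to 240 CPM in wildtype. Acta2 alone was closest to Ccdc112, Lmtk3, Dennd2c, Sepn1 and Rbm43, with r of 0.97, 0.95, 0.92, 0.92 and 0.92, and 0.95, 0.91, 0.87, 0.91 and 0.93 without Kat5/1. Lmtk3 had 28.0 CPM in Kat5/1, 0.752 CPM in Kat5/2 and 2.78 to 5.74 CPM in wildtype. These are descriptions over libraries that share their group, clone and depth.

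Further genes of smooth muscle were followed in a list of 24, such as other contractile proteins, their scaffolds and desmin. In Kat5 ko clones 0 of 18 tested were called, with a median log2-fold change of 0.30 against 0.00 for all genes. Of these 18, 6 had an unadjusted p of at most 0.05, beside 2996 of all 13434 genes tested. DESeq2 called 4 and limma-voom 0. In Ep400 ko clones 0 of 19 tested rose and 3 fell, Fhl2, Flna and Pdlim7, at a median of −0.08 against 0.04 for all genes. These are 3 of 19, beside 13.7% of all genes tested, a share that holds for edgeR alone. DESeq2, which called more genes over all (totals in the last paragraph), called 3 higher and 4 lower, and limma-voom 1 higher and 3 lower. Fhl2, a LIM protein that binds SRF, had 45.4 to 56.9 CPM in wildtype samples and 17.3 to 27.1 CPM in Ep400 ko clones, with a log2-fold change of −1.12 ± 0.19 (adjusted p = 0.0091). Flna, the actin crosslinker filamin A, had 1355 to 1777 CPM in wildtype samples and 883 to 974 CPM in Ep400 ko clones, with a log2-fold change of −0.73 ± 0.16 (adjusted p = 0.0212), which was not called after an offset for chromosome shifts (−0.52, adjusted p = 0.0562). Pdlim7, a scaffold on actin fibres, fell by 0.67 on the log2 scale (adjusted p = 0.0169), which was not called with all libraries in 1 fit (adjusted p = 0.229). The call of Fhl2 held in all 7 fits that left out 1 library, that of Flna was lost without wildtype sample 1, wildtype sample 4 or Ep400/2 (−0.70, −0.67 and −0.73) and that of Pdlim7 without wildtype sample 1 or 2 (−0.61 and −0.63). Between the knockouts, Synpo2 was higher and Fhl2, Flna, Smtn and Lpp were lower in Ep400 ko clones, 5 of 19 tested beside 7.05% of all genes. Each of these 5 calls was lost in 3 to 6 of the 6 fits that left out 1 clone. Actg2, the enteric smooth muscle actin, had 0 to 1 reads in wildtype samples and was not tested against them. It had 51, 0 and 9 reads in Kat5/1, Kat5/2 and Kat5/3, and 57, 4 and 13 in Ep400/1, Ep400/2 and Ep400/3. Between the knockouts its log2-fold change was 0.13 ± 1.37 (adjusted p = 0.956).

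Of 14 factors that regulate SRF or its targets, 13 were tested. In Kat5 ko clones 0 of them were called, with 1 called by DESeq2 and 0 by limma-voom. An unadjusted p of at most 0.05 was found for 2, beside 2996 of all 13434 genes tested. In Ep400 ko clones 1 of 13 rose and 0 fell, beside 13.7% of all genes called by edgeR in either direction. DESeq2, which called more genes over all (totals in the last paragraph), called 1 higher and 3 lower (Foxo4, Notch3 and Gata6), and limma-voom 1 higher. The 1 called by all 3 tools was Klf4, a repressor of smooth muscle genes, with 57.6 to 78.2 CPM in wildtype samples and 111 to 260 CPM in Ep400 ko clones and a log2-fold change of 1.56 ± 0.26 (adjusted p = 0.0092), called in all 7 fits with 1 library left out. In Ep400/2, where Acta2, Tagln and Myl9 were below all wildtype samples, Klf4 stood at 226 CPM, in Ep400/1, where Acta2 and Tagln were above them, at 260 CPM, and in Ep400/3, where Acta2 and Myl9 were above them, at 111 CPM. In the Kat5 ko clones Klf4 stood at 104, 62.6 and 85.4 CPM. Mkl1 and Mkl2, the genes of the actin-sensitive coactivators, were tested and not called, with 72.4 to 96.0 and 32.6 to 44.9 CPM in wildtype samples and 85.1 to 100.3 and 29.1 to 40.8 CPM over all clones.

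Nonmuscle relatives of the group were set beside it. Of 11 such actins, calponins, tropomyosins and myosins, 10 were tested. In Kat5 ko clones 0 were called, with a median log2-fold change of 0.26 against 0.00 for all genes. An unadjusted p of at most 0.05 was found for 2, beside 2996 of all 13434 genes tested. DESeq2 called 1 and limma-voom 0. In Ep400 ko clones 0 rose and 1 fell, at a median of −0.32 against 0.04, the 1 being Myh10, the heavy chain of nonmuscle myosin IIB. This is 1 of 10 beside 13.7% of all genes called by edgeR. DESeq2, which called more genes over all (totals in the last paragraph), called 3 lower (Actb, Actg1 and Myh10), and limma-voom Myh10 alone. Myh10 had 289 to 355 CPM in wildtype samples and 127 to 157 CPM in Ep400 ko clones, with a log2-fold change of −1.11 ± 0.15 (adjusted p = 0.0046), called in all 7 fits with 1 library left out. Between the knockouts, Actb, Actg1 and Myh10 were lower and Myl12b was higher in Ep400 ko clones, 4 of 10 tested beside 7.05% of all genes. Each call was lost in 4 or 5 of the 6 fits with 1 clone left out. In clone Kat5/1, 7 of these 10 genes were above and 1 below the wildtype range, beside 26.6% and 29.1% of all genes. Their median log2 difference was 0.33, beside 1.22 for the 7 smooth muscle genes tested and 0.00 for all genes. From the list of further smooth muscle genes, 10 of 18 were above and 4 below, at a median of 0.43. Whether smooth muscle and nonmuscle genes differed in this was not tested.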

How the data were processed

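Polyadenylated RNA of 10 libraries was sequenced in pairs by the authors, whose processing notes name bcl2fastq 2.20, STAR 2.7.3, DESeq2 1.36.0 and the build mm10. The counting program and annotation are not given in the sources used here. The table used here holds raw counts, that is reads per gene in whole numbers, as deposited by the authors. Their deposited tables of normalized values were not used. Samples were grouped by their labels. The genes and lists were chosen with earlier results of these data known, and lists were written from general knowledge. All 10 genes were to be named, and from other lists counts of calls with at most 5 called genes each.

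With R 4.3.3 and edgeR 4.0.16, each pair of groups was filtered with filterByExpr, TMM-normalised and tested by edgeR's quasi-likelihood test with the robust option and Benjamini-Hochberg adjustment. The log2 CPM used a prior count of 2. DESeq2 1.42.0 and limma 3.58.1 served as alternatives. The procedure was tested on simulated data. Coordinates and exon lengths are from GENCODE M21 (GRCm38, the build mm10), where 42462 of 43346 gene identifiers were found. Promoters are from RefSeq. Replicate libraries differed by more than counting noise (chi-square of 28.2 to 273 for each degree of freedom), and each was used once. Counting limits cover counting error only.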

Additional observations from a re-analysis of the deposited data

Results flagged for a closer look

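Myocd was singled out because 1 of its 4 wildtype samples stood apart from the others, sample 4 with 1 read beside 0 reads in samples 1 to 3. With counts this low any single read stands apart in this way, and a count of 1 does not differ detectably from 0.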

How the results depend on the processing

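Alternatives were DESeq2, limma-voom, DESeq2 size factors, library size alone, no filter on low counts, all 10 libraries in 1 fit, a replicate block, chromosome shifts as offset, the robust option left out (added after the data had been seen) and each library left out in turn. Of the values of single genes among the 7 tested, 107 of 110 kept direction and call for Kat5 ko against wildtype, 101 of 111 for Ep400 ko against wildtype and 94 of 104 between the knockouts. As none of the 7 was called in the main fits, a value was kept if its sign held and it stayed uncalled, whatever its size. The fall of Acta2 in Kat5 ko clones from 4.10 to 0.03 without Kat5/1 thus counted as kept. The number of called genes stayed at 0 of 7 in Kat5 ko clones, also with the further limits for DEGs. It was 1, Tpm1, between the knockouts with DESeq2, with limma-voom, with all libraries in 1 fit and with chromosome shifts as offset. DESeq2 gave no adjusted p for Tagln in any comparison and for Myl9 in Kat5 ko clones.

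With limma-voom, Myl9 turned to −0.10 in Kat5 ko and −0.53 in Ep400 ko clones, Tagln to −0.54 in Ep400 ko clones and Acta2 between the knockouts to 0.023. With the replicate block, Tagln turned to −0.29 and Srf to −0.019 in Ep400 ko clones and Acta2 to 0.20 between the knockouts, and the call of Kat5 in its own knockout was lost (−1.39, adjusted p = 0.0960). Replicate numbers only name the samples, and deviations of same-numbered libraries correlated at −0.10 to 0.22. Under the block 0, 166 and 213 genes were called in the 3 comparisons, and of the calls in the further lists 22 of 28 were lost, among them Fhl2, Flna, Pdlim7, Klf4 and Myh10 in Ep400 ko clones. The causes of these changes were not tested.

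With 1 library left out, called genes ranged from 0 to 1 in Ep400 ko clones (Acta2). Log2-fold changes against wildtype ranged from −2.30 to 3.74 for Myl9 and −0.43 to 0.52 for Tpm2 in Kat5 ko, and from −2.47 to 1.25 for Tagln, −0.65 to 2.07 for Myl9 and −0.055 to 0.13 for Srf in Ep400 ko clones. Between the knockouts they ranged from −2.92 to 1.74 for Acta2, −0.44 to 0.26 for Cnn2, −3.85 to 3.77 for Myl9 and −0.13 to 0.82 for Tpm2. Kat5 in its own knockout ranged from −1.47 to −1.24, and its call was lost without wildtype sample 1, wildtype sample 4 or Kat5/3. Over all genes, calls numbered 84 in Kat5 ko clones, 1899 in Ep400 ko clones and 958 between the knockouts. With DESeq2 they were 1475, 3131 and 3067 of the 13434, 13836 and 13587 genes tested. Calls of DESeq2 in the single lists are to be read beside these totals. With 1 library left out, calls in edgeR numbered 1 to 2654 (1 without wildtype sample 1 or 4, 2654 without Kat5/1), 804 to 2020 and 3 to 2537. Without the filter they were 286 in Kat5 ko clones and 1445 between the knockouts, and in 1 fit 27 and 3555. With 0 to 8 reads per library, Cnn1, Myh11 and Myocd were beyond what this depth resolves.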
